A study of Mus musculus with 6 samples.

Results

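The transcripts described here are those of 10 genes of the brain endothelium, the cells that line its vessels. They were divided into 2 activation genes, Vwf and Edn1, and 8 identity and junction genes, Pecam1, Cdh5, Cldn5, Tek, Kdr, Flt1, Esam and Slco1c1. Every probe of the deposited table with one of these symbols was taken, 12 probes of the 25697 in the table. Of these, 10 probes of 9 genes were bright enough to be tested among 14215 tested probes. The genes had been picked with their difference between hSRY-ON and hSRY-OFF brains known, so their values in this contrast are a description: no p-value is given for them, and where they are counted among the calls of the fit over all probes nothing is read from the count.

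The RNA came from the whole brain of male FVB mice (FVB/N background in the study's methods) at postnatal day 6, with 3 hSRY-OFF and 3 hSRY-ON mice, and was measured on Illumina MouseRef-8 bead arrays, 1 array per mouse. Both groups carried the Signalox-hSRY transgene, which was integrated as a single copy at the H11 locus on chromosome 11. In hSRY-OFF mice the ubiquitous CAG promoter of this transgene drove the red fluorescent protein DsRed2. In hSRY-ON mice the floxed DsRed2 cassette had been removed by Cre recombinase that the oocytes of Ddx4-Cre mothers supplied, so that the same promoter drove a tagged human SRY together with EGFP. The hSRY-ON mice chosen for the arrays had not inherited Ddx4-Cre itself. The paper defines littermate controls as pups without this transgene and does not state the mothers of the hSRY-OFF mice. Effects of litter or mother therefore cannot be told apart from those of the group. The transgene was active in all organs from the earliest embryo, so effects that arose in the brain vessels and effects of the state of the whole animal cannot be told apart. The activity of the human transgene itself was not measured here.

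Brain endothelial cells form the blood-brain barrier: they are sealed to each other by adherens and tight junctions and carry nutrients across by dedicated transporters. They also hold a secretory store, the Weibel-Palade body, in which von Willebrand factor is kept with other proteins that act on clotting, leukocytes and vessel growth. When endothelium is stimulated, release and synthesis of such products can change while the genes that define the cell type are kept on. Endothelin is made by the endothelium too and constricts the smooth muscle of the vessel wall.

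The median signal of the 6 arrays lay between 200 and 220 intensity units, and between 13816 and 14377 probes were detected on each. The identity genes were present in these brains: Pecam1, Cdh5, Cldn5, Tek, Flt1, Esam and Slco1c1 each had a probe detected on all 6 arrays, and Kdr had none. The probe of Kdr, the main signalling receptor for VEGF, read between 178 and 181 units, and its detection p-values ran from 0.0639 to 0.253. It was therefore below background in both groups and has no fold change. Fewer endothelial cells and less RNA per endothelial cell cannot be told apart in whole-brain RNA.

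Promoter windows from RefSeq on GRCm38.p6 were at hand for 6 of the 10 genes, namely Edn1, Cldn5, Tek, Kdr, Flt1 and Slco1c1. The 250 bases before the gene start are printed for the 3 of them whose listed start was also the edge of the annotated gene. They show the DNA next to the start of an activation gene that read higher in hSRY-ON brains and of 2 barrier genes that read lower. Capitals mark matches on either strand to the motifs searched: the letters AACAAT are a core bound by SOX proteins, those of ACAAAG a core bound by HMG-box proteins such as SRY and the TCF factors, and those of AGGAAG a core bound by ETS proteins. The marked matches did not overlap.
Edn1 chr13:42301226-42301475, plus strand: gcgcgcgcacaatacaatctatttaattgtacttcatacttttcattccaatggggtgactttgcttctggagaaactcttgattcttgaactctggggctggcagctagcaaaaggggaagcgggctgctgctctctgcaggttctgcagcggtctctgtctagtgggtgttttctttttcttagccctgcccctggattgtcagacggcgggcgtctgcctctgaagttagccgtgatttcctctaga
Cldn5 chr16:18776597-18776846, plus strand: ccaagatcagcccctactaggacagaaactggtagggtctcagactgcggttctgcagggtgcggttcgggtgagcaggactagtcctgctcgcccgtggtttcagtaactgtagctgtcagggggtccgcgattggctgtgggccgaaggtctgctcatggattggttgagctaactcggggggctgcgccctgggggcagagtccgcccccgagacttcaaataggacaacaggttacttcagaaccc
Slco1c1 chr6:141524104-141524353, plus strand: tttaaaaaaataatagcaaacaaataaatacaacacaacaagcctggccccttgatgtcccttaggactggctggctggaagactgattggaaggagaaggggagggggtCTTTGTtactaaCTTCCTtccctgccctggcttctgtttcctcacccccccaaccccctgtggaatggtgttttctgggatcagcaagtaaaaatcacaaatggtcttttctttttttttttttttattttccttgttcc

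None of the 3 motifs was in the Edn1 or the Cldn5 window. The Slco1c1 window held 1 match to ACAAAG and 1 to AGGAAG, both read on the minus strand and starting 140 and 128 bases before the gene start. Among the windows that are not printed, Tek held 1 match to AACAAT and 1 to ACAAAG, at 63 and 26 bases before its listed start, Flt1 held 2 matches to AGGAAG, and Kdr held none. Of 32851 mouse promoter windows of the same length, 9.42% held AACAAT, 16.5% held ACAAAG and 29.5% held AGGAAG on either strand, so such matches are common, and a match here is a description of the letters only. No window was matched for Vwf, Pecam1, Cdh5 or Esam.

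Vwf (probe ILMN_2519673) encodes von Willebrand factor, the large glycoprotein that tethers platelets to an injured vessel wall and carries clotting factor VIII; the gene lies at chr6:125552948-125686679 on GRCm38.p6. In hSRY-OFF brains its deposited signal was 577 units on array 1, 474 on array 2 and 446 on array 3, and in hSRY-ON brains it was 1344 on array 1, 1472 on array 2 and 977 on array 3. All hSRY-ON arrays lay well above all hSRY-OFF arrays, and the lowest of them was array 3. After background correction and quantile normalization, the level was 8.38 ± 0.13 (SD, n = 3) on the log2 scale in hSRY-OFF and 10.13 ± 0.35 in hSRY-ON brains. The difference was 1.75 (SE 0.18, 95% interval 1.34 to 2.17), or 3.37-fold, the fourth highest log2 difference of the tested probes.

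Edn1 (ILMN_2737713) encodes the precursor of endothelin-1, the vasoconstrictor peptide of the vessel wall, and lies at chr13:42301476-42307990. In hSRY-OFF brains its signal was 281, 240 and 248 units, and in hSRY-ON brains 661, 439 and 376 units, in the order of the arrays. The groups did not overlap, and hSRY-ON array 1 stood above the other two hSRY-ON arrays. Normalized levels were 6.66 ± 0.14 in hSRY-OFF and 8.37 ± 0.54 in hSRY-ON brains (log2, SD, n = 3). The log2 difference was 1.71 (SE 0.25, 95% interval 1.12 to 2.30), or 3.27-fold, and ranked seventh among the tested probes. The mean deposited signals were 256 and 492 units, closer together than this fold. With no background correction the log2 difference was 0.95, and with the normexp correction at an offset of 50 it was 1.28.

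**Figure D1:**
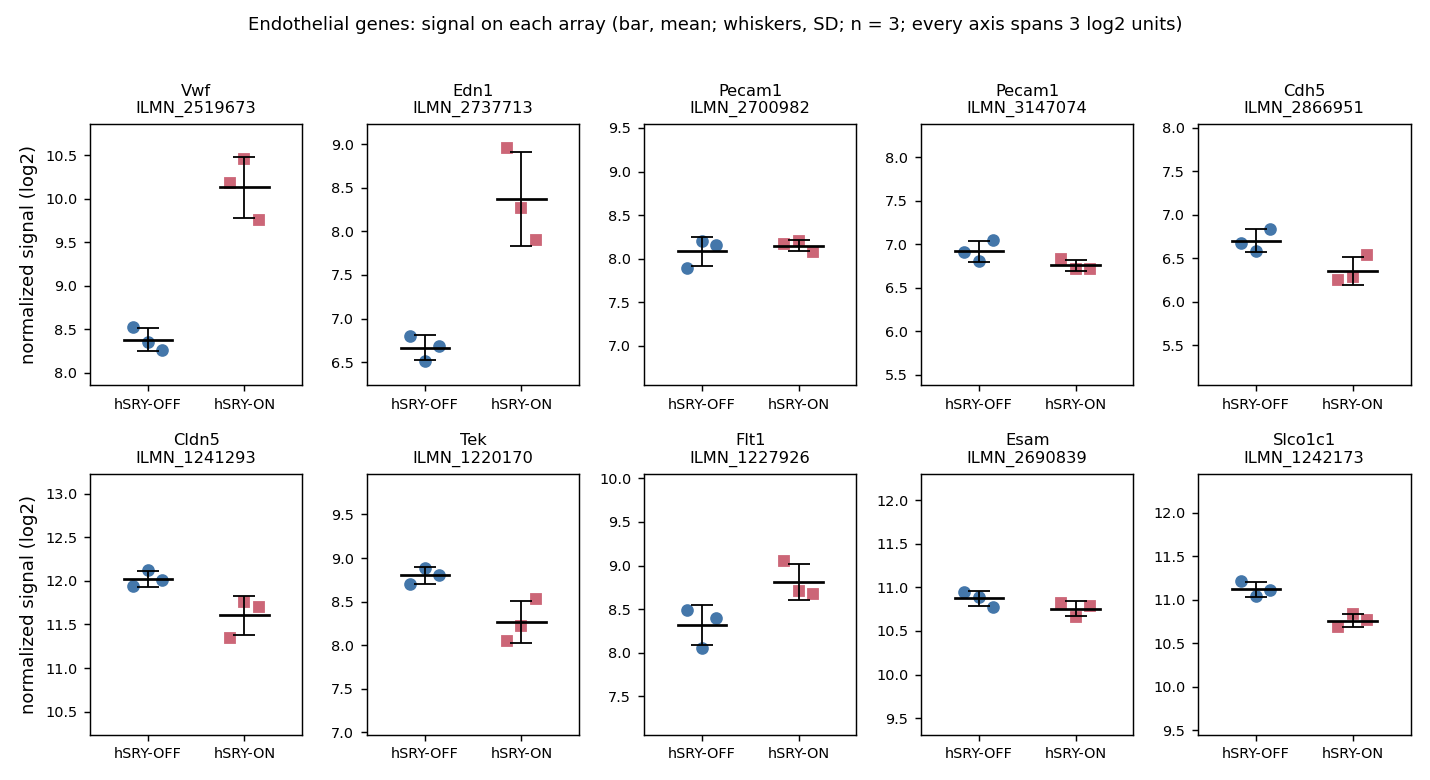
Normalized signal (log2) of the 10 tested endothelial probes on each array, with hSRY-OFF arrays as circles and hSRY-ON arrays as squares in the order of their replicate numbers, the group mean as a bar and its SD as whiskers (n = 3). Vwf and Edn1 stood apart from their hSRY-OFF levels by 1.75 and 1.71 log2 units, whereas the other genes differed by at most 0.53 in size.

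The genes of cell identity and adhesion were led by Pecam1, the adhesion molecule CD31, which lies at chr11:106654213-106715281 and was the only one of the 10 genes on the chromosome of the transgene. Its brighter probe, ILMN_2700982, read 427, 440 and 423 units in hSRY-OFF brains and 445, 427 and 408 units in hSRY-ON brains. Its other probe, ILMN_3147074, read 292, 260 and 276 against 267, 246 and 251 units. The groups overlapped for both probes, and the normalized log2 differences had opposite signs, 0.07 (SE 0.10, 95% interval -0.18 to 0.31) for the brighter and -0.16 (SE 0.09, 95% interval -0.38 to 0.05) for the other.

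Cdh5 (ILMN_2866951; chr8:104101613-104144504) encodes VE-cadherin, the adhesion protein of endothelial adherens junctions. It read 272, 244 and 259 units in hSRY-OFF brains and 228, 220 and 239 units in hSRY-ON brains. These signals were close to the array medians, and every hSRY-ON array was below every hSRY-OFF array. The normalized level was 6.70 ± 0.13 against 6.35 ± 0.16, a log2 difference of -0.35 (SE 0.11, 95% interval -0.61 to -0.08). With no background correction the difference was -0.13.

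Esam (ILMN_2690839; chr9:37528089-37538319), an adhesion molecule of endothelial tight junctions, read 2395, 2011 and 1843 units in hSRY-OFF and 1993, 1685 and 1846 units in hSRY-ON brains. The groups overlapped, and the log2 difference was -0.12 (SE 0.09, 95% interval -0.32 to 0.09).

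Cldn5 (ILMN_1241293; chr16:18776847-18778262) encodes claudin-5, the principal claudin of blood-brain barrier tight junctions, and gave the brightest of the member probes. It read 4591, 4491 and 4122 units in hSRY-OFF brains and 2803, 3430 and 3425 units in hSRY-ON brains. All hSRY-ON arrays were lower, array 1 by the most. The normalized level was 12.02 ± 0.09 in hSRY-OFF and 11.60 ± 0.23 in hSRY-ON brains, a log2 difference of -0.42 (SE 0.13, 95% interval -0.72 to -0.12).

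Slco1c1 (ILMN_1242173; chr6:141524354-141570177) encodes the transporter OATP1C1, which takes thyroxine across the blood-brain barrier. Its signals were 2870, 2215 and 2278 units in hSRY-OFF and 1826, 1888 and 1819 units in hSRY-ON brains. The hSRY-ON arrays lay close together below all hSRY-OFF arrays. The normalized level was 11.12 ± 0.09 against 10.76 ± 0.08, and the log2 difference was -0.36 (SE 0.09, 95% interval -0.56 to -0.16).

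Among the receptors, Tek (ILMN_1220170; chr4:94739086-94874976) encodes TIE2, the receptor of the angiopoietins. It read 629, 616 and 582 units in hSRY-OFF brains and 423, 430 and 501 units in hSRY-ON brains. The groups did not overlap, and hSRY-ON array 3 was nearest to the hSRY-OFF arrays. The normalized level was 8.80 ± 0.09 in hSRY-OFF and 8.27 ± 0.24 in hSRY-ON brains, and the log2 difference of -0.53 (SE 0.13, 95% interval -0.85 to -0.22) was the lowest among the members.

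Flt1 (chr5:147561604-147726438) encodes VEGF receptor 1, which binds VEGF and as a soluble form can sequester it. Its detected probe, ILMN_1227926, read 566, 412 and 472 units in hSRY-OFF and 692, 545 and 535 units in hSRY-ON brains. These deposited signals overlapped between the groups, whereas the normalized values did not. On the normalized scale Flt1 was at 8.32 ± 0.23 in hSRY-OFF and 8.81 ± 0.21 in hSRY-ON brains, a log2 difference of 0.49 (SE 0.15, 95% interval 0.14 to 0.85), or 1.41-fold. It was the one identity gene whose hSRY-ON arrays all lay above the hSRY-OFF arrays. The other probe of Flt1, ILMN_2732721, was detected on no array, at 161 to 187 units, so the 2 probes could not be compared. Kdr, at chr5:75932827-75979072, was described above as below background.

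**Figure D2:**
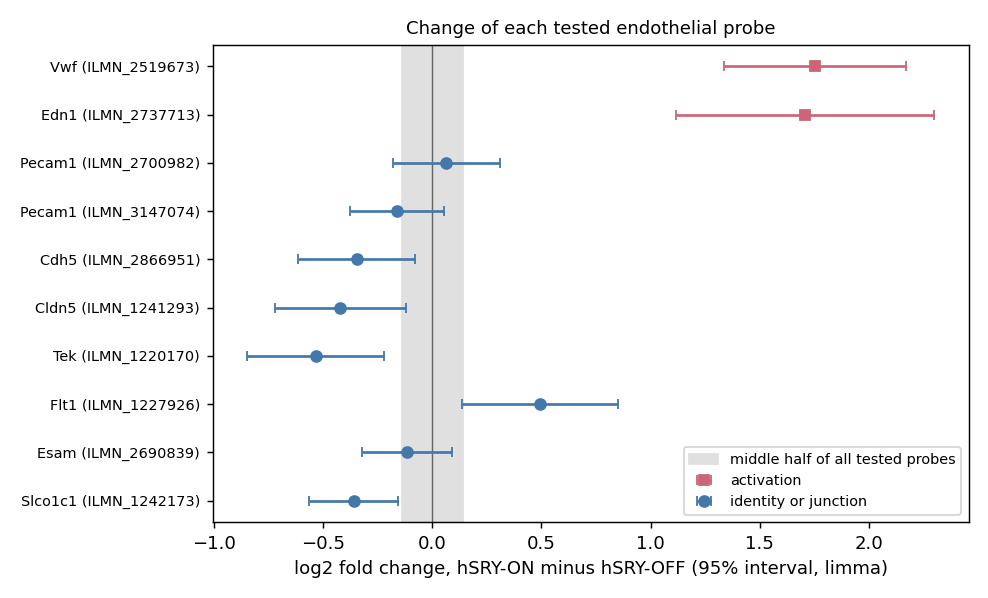
Log2 fold change, hSRY-ON minus hSRY-OFF, of each tested endothelial probe with its 95% interval from limma; the grey band spans the middle 50% of all tested probes, from -0.14 to 0.14. Vwf and Edn1 lay at 1.75 and 1.71, Flt1 at 0.49, and Tek, Cldn5, Slco1c1 and Cdh5 between -0.53 and -0.35.

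The median log2 difference was 1.73 over the 2 activation genes and -0.35 over the 7 tested identity and junction genes, beside 0.00481 over all tested probes. Of the 7, 2 were above 0 and 5 below. Their median was -0.13 with no background correction and -0.21 with the normexp correction at an offset of 50. Across the whole series, 308 probes passed the threshold of an adjusted p under 0.05 in limma, 2.17% of those tested. With the brightest probe of each symbol this share was 2.39%, with 0.91% higher and 1.48% lower in hSRY-ON. Both activation genes were among these calls and 0 of the 7 identity genes were, and since the genes were picked on this contrast nothing is read from that count. By array values, 1 of the 7 identity genes was higher and 4 were lower in hSRY-ON without overlap, where 13.7% of all symbols were higher and 15.3% lower in this way.

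The calls of Vwf and Edn1 depended on single arrays. Without hSRY-OFF array 1, 2 or 3, or without hSRY-ON array 1 or 2, limma called at most 1 probe in the whole series and neither Vwf nor Edn1, with 2236 to 2690 probes at an unadjusted p under 0.05. Without hSRY-ON array 3 both genes were called, among 417 probes. The log2 difference over these fits was 1.59 to 1.94 for Vwf and 1.41 to 1.95 for Edn1. The count of identity genes called was 1 without hSRY-ON array 3, 2 with the normexp correction at an offset of 50 (860 probes called in all) or with the stricter filter (705), and 4 with no background correction (1317) or with a trended, robust prior (1447).

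The spread among hSRY-ON brains was shared by several of the genes. On the normalized scale, array 1 of hSRY-ON had the highest Edn1 and Flt1 and the lowest Cdh5, Cldn5, Tek and Slco1c1 of all arrays, while Vwf was highest on hSRY-ON array 2. Array 3 of hSRY-ON was nearest to the hSRY-OFF mean for Vwf, Edn1, Cdh5, Tek and Flt1. For Cldn5 and Slco1c1 the nearest was array 2.

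The mean log2 level of the 7 identity genes was 9.41, 9.40 and 9.44 in hSRY-OFF brains and 9.19, 9.24 and 9.30 in hSRY-ON brains. Relative to this mean on the same array, Vwf stood at -0.89, -1.04 and -1.18 in hSRY-OFF and at 0.99, 1.22 and 0.47 in hSRY-ON brains. Edn1 stood at -2.62, -2.88 and -2.76 in hSRY-OFF and at -0.24, -0.97 and -1.40 in hSRY-ON brains. Since both sets of genes were picked on this contrast, the distance between the groups is a description, and levels of different probes are not comparable within an array.

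Across the 6 arrays Pearson's r of the log2 levels was 0.95 between Vwf and Edn1. With Edn1, r was -0.98 for Tek, -0.95 for Cldn5, -0.91 for Slco1c1, -0.88 for Cdh5 and 0.93 for Flt1. Pecam1 and Esam followed it less closely, at 0.28 and -0.52. The arrays fell into 2 groups, and the distance between the groups sets most of each value, so these are descriptions over 6 points.

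**Figure D3:**
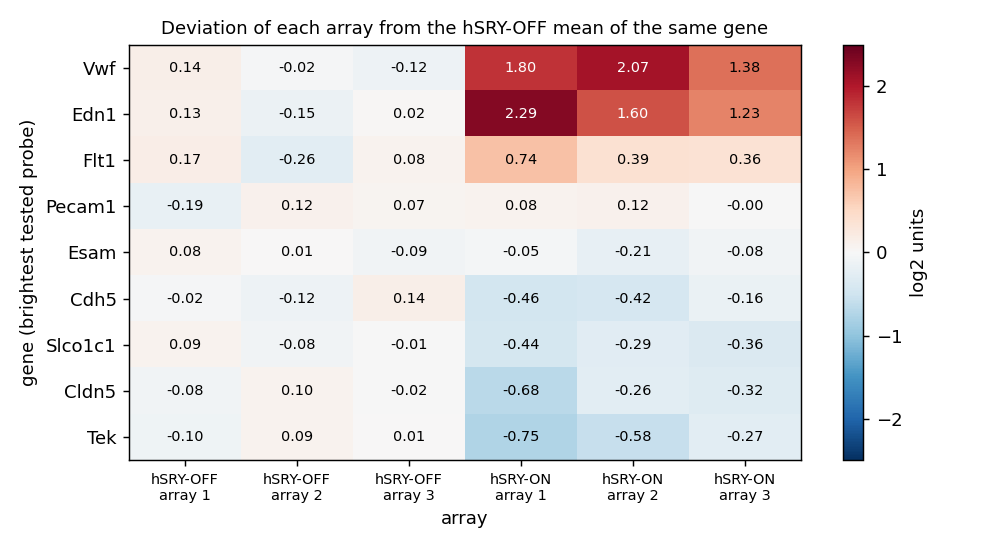
Deviation of each array from the hSRY-OFF mean of the same gene, in log2 units, with genes in rows (brightest tested probe) and arrays in columns; red is above and blue below that mean. Vwf and Edn1 deviated upward on all 3 hSRY-ON arrays and Tek, Cldn5, Slco1c1 and Cdh5 downward on all 3, with hSRY-ON array 1 the farthest for Edn1, Flt1, Cdh5, Slco1c1, Cldn5 and Tek.

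The tested genes whose levels over the 6 arrays were most like those of Vwf were Ddb2 (r = 0.997), Prodh (0.996), Aloxe3 (0.995), Lgals4 (0.994) and Fam107a (0.993). Those most like Edn1 were Asah3l, now named Acer2 (0.997), Tmem82 (0.996), Htra1 (0.994), 3010026O09Rik (0.993) and Kctd2 (0.992). None of these 10 genes was on the endothelial lists, and the log2 difference of the closest ones was 0.37 for Ddb2 and 3.16 for Asah3l.

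Other genes of the endothelium, its pathways and its transport were then set beside the members, and are called endothelial genes here for short. Some are also made by other cells, such as Ednra by vascular smooth muscle and Ednrb by astrocytes. The values are therefore not those of the endothelium alone. The lists held 115 genes, each counted once, of which 109 had a probe and 78 were tested. Their median log2 difference was -0.10, with 29 above 0 and 49 below. It was -0.06 with no background correction or with no filter on dim probes, and -0.13 to -0.05 without single arrays. The lists were chosen with earlier results of these data known, so their shares are descriptions. In limma, 1 gene (1.28%) was called higher and 4 genes (5.13%) were called lower, against 0.91% and 1.48% of all symbols. Without overlap between the groups, 14 genes (17.9%) were higher and 25 (32.1%) lower, where 13.7% and 15.3% of all symbols were. At an unadjusted p under 0.05 in limma there were 14 higher and 23 lower, where 9.86% and 11.6% of all symbols were. Both counts of 14 include Lcn2, which passed the detection filter only through the hSRY-ON arrays.

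The gene called higher was Angpt2, angiopoietin-2, a ligand of TIE2 that endothelial cells store in Weibel-Palade bodies beside von Willebrand factor. Its log2 levels were 7.51, 7.63 and 7.81 in hSRY-OFF brains and 8.99, 8.41 and 8.61 in hSRY-ON brains. It rose by 1.02 on the log2 scale (SE 0.16, limma adjusted p = 0.0348), and the groups did not overlap. Of the 8 genes of the Weibel-Palade body and inducible adhesion, 5 were tested, with a median of -0.24, and Angpt2 was the only call, where 2.39% of all symbols were called. In all 5 the groups did not overlap and the unadjusted p was under 0.05, with 2 higher and 3 lower; of all symbols, 13.7% were higher and 15.3% lower without overlap, and 9.86% and 11.6% were at that p. The adhesion molecules that leukocytes bind were at 0.27 for Icam1 and -0.31 for Vcam1, and Rab27a, which regulates granule release, was at -0.32. Selp and Sele, the P- and E-selectins of stimulated endothelium, and F8, clotting factor VIII, were below background in both groups.

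Over the 6 tested haemostatic genes of the vessel wall other than Vwf, the median was 0.01, 0 were called in limma and 1 was lower at an unadjusted p under 0.05, where 11.6% of all symbols were. Plat, tissue plasminogen activator, was at 0.23 with detection on only 3 of the 6 arrays, S100a10, a partner of annexin in plasminogen binding, at 0.14, and Adamts13, the protease that cleaves von Willebrand factor, at -0.26. Nos3, the endothelial nitric oxide synthase, was at -0.43 by its brightest probe, and its other tested probes gave -0.62 (adjusted p = 0.0566) and -0.39. Thbd, Procr and F3 were below background.

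In the endothelin pathway, the tested receptors and converting enzymes had log2 differences below 0, not all of them apart from 0. Ednra, the receptor on vascular smooth muscle, differed by -0.34 (SE 0.09, adjusted p = 0.106), and its levels of 9.41, 9.28 and 9.28 in hSRY-OFF did not overlap those of 8.90, 9.12 and 8.95 in hSRY-ON brains. Ednrb, found on astrocytes as well as endothelium, differed by -0.23 by its brightest probe. Its other tested probes gave -0.18 and -0.02, both with overlapping groups. The converting enzymes Ece1 and Ece2, which release the active peptide, differed by -0.11 and -0.32. The median of the 4 genes was -0.27, 0 were called in limma and 3 were lower at an unadjusted p under 0.05, where 11.6% of all symbols were. Edn2 and Edn3, the other endothelins, were below background.

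The VEGF and angiopoietin pathway held 13 genes with a probe, of which 11 were tested, with a median of -0.06 and Angpt2 as the only call, where 0.91% of all symbols were called higher. Vegfa, the ligand of FLT1 and KDR, read 8.61, 8.50 and 8.51 in hSRY-OFF and 10.14, 9.22 and 9.49 in hSRY-ON brains (log2). The difference was 1.07 (SE 0.22) and missed the threshold at an adjusted p of 0.0566, and its other tested probe gave 0.82 (adjusted p = 0.0717). Tie1, the partner of TIE2, was at -0.63 (adjusted p = 0.160). Aplnr, the apelin receptor of sprouting and venous endothelium, was at -1.65 (SE 0.40, adjusted p = 0.0813), and its hSRY-ON arrays were spread widely, at 6.41, 7.42 and 8.17.

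Among 23 tested pan-endothelial genes the median was -0.18, and 2 transcription factors of the endothelium were called, both lower (8.7% of the list, where 1.48% of all symbols were). Without overlap 4 were higher and 9 lower, against 13.7% and 15.3% of all symbols. Sox18 read 7.98 to 8.07 in hSRY-OFF and 7.21, 7.47 and 7.26 in hSRY-ON brains and fell by 0.70 (SE 0.09, adjusted p = 0.0263). Ets1 read 10.21, 10.28 and 10.14 against 9.38, 9.55 and 9.61 and also fell by 0.70 (SE 0.09, adjusted p = 0.0263). Neither gene had overlapping groups. Ly6c1, a surface protein of brain capillaries, was at 0.64 (adjusted p = 0.0513), and Adgrl4, listed on the array as Eltd1, at 0.43.

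Of the 7 tested junction genes other than the members, Jam2, a junctional adhesion molecule, was called, where 1.48% of all symbols were called lower. It fell by 0.48 (SE 0.08, adjusted p = 0.0348), from 8.01, 8.04 and 7.96 to 7.59, 7.47 and 7.50, and its other tested probes gave -0.50 and -0.53 (adjusted p = 0.0717 and 0.0570). The median of these genes was -0.08. Cldn1 and Cldn3, claudins also made by the choroid plexus, were at 0.91 (adjusted p = 0.0837) and 0.72 (adjusted p = 0.0697), and Ocln, occludin, at -0.31.

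Among 11 tested genes of blood-brain barrier transport, with a median of -0.08, Slc38a5, a glutamine transporter of brain endothelium, had the lowest log2 difference of all tested probes. It read 11.16, 11.13 and 11.14 in hSRY-OFF and 8.71, 9.27 and 9.94 in hSRY-ON brains. It fell by 1.83 (SE 0.28, limma adjusted p = 0.0328) and was the only call of this list, where 1.48% of all symbols were called lower. The hSRY-OFF arrays were nearly alike, and hSRY-ON array 3 was again the nearest to them. The glucose transporter Slc2a1 was at 0.60 (adjusted p = 0.107), the organic anion transporter Slc22a8 at 0.45 (adjusted p = 0.0513) and the iron exporter Slc40a1 at -0.76 (adjusted p = 0.0532).

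By vessel type, the 6 tested tip-cell genes had a median of 0.00295, with Adm, detected on 3 of the 6 arrays, at 0.36, Nid2 at -0.28 and Pdgfb at -0.33 beside Angpt2. The 5 tested arterial genes had a median of -0.04 and 0 calls in limma, with 1 lower at an unadjusted p under 0.05, where 1.48% of all symbols were called lower and 11.6% were lower at that p. Of these, Gja5 was at -0.40, Unc5b at -0.15, and Bmx and Gja4 at 0.07 and 0.03, both of which changed sign when single arrays were left out. With 1.48% of all symbols called lower, Slc38a5 was the only call among the 6 venous genes, whose median was -0.10. One of them, Lcn2, was detected on the 3 hSRY-ON arrays and on none of the hSRY-OFF arrays, so it passed the filter through hSRY-ON only and no fold is given. Its log2 levels in hSRY-ON brains were 6.06, 5.82 and 7.74, the highest on array 3, and without it the venous median was -0.26. It was the only one of the 78 tested endothelial genes detected in a single group, and the median of the other 77 was -0.11, with 28 above 0 and 13 higher without overlap.

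**Figure D4:**
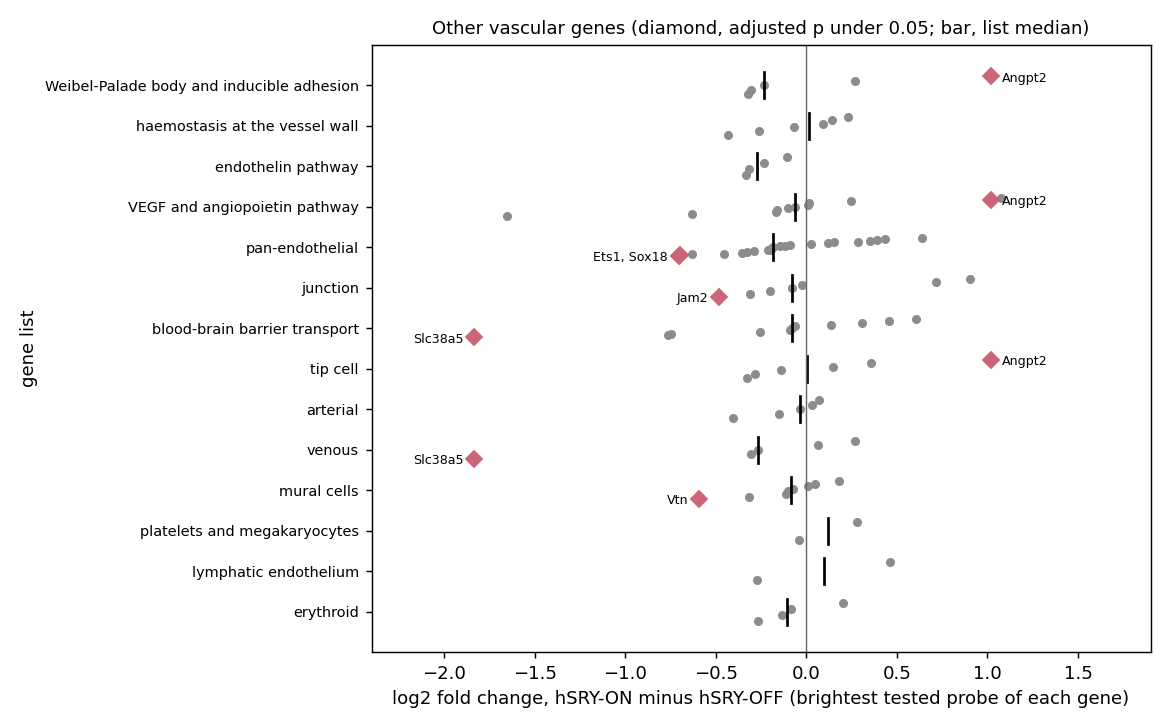
Log2 fold change, hSRY-ON minus hSRY-OFF, of the brightest tested probe of each listed gene, with 1 row per list; diamonds are genes with a limma adjusted p under 0.05 and bars are list medians. The calls were Angpt2 at 1.02, Jam2 at -0.48, Ets1 and Sox18 at -0.70, Slc38a5 at -1.83 and, among mural cells, Vtn at -0.59; a gene on several lists is drawn in each, and Lcn2, below background in hSRY-OFF, is not drawn or counted in the venous median of -0.26.

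These calls depended on single arrays as well. Angpt2, Sox18, Ets1, Jam2 and Slc38a5 each missed the threshold without any 1 of hSRY-OFF arrays 1 to 3 and hSRY-ON arrays 1 and 2, with adjusted p between 0.0614 and 0.125, and were called without hSRY-ON array 3. With no filter on dim probes Angpt2 (adjusted p = 0.0528) and Jam2 (0.0589) also missed it in limma. Their direction was the same in every alternative run.

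Markers of the cells that lie beside or within vessels gave these values. Of 10 mural-cell markers, 8 were tested and their median was -0.09, with mean log2 levels of 8.22 to 8.30 in hSRY-OFF and 8.12 to 8.17 in hSRY-ON brains. Vtn, vitronectin of pericytes, was the one call, where 1.48% of all symbols were called lower, and fell by 0.59 (SE 0.10, adjusted p = 0.0386). This call was lost without any single array other than hSRY-ON array 3 (adjusted p between 0.0955 and 0.126) and with no filter on dim probes (0.0606). The other named mural genes were Rgs5 at -0.31, Abcc9 at 0.18 and Acta2 at 0.05 by its brightest probe and at 0.07, 0.18 and 0.30 by its others, the last without overlap (adjusted p = 0.147), and Tagln and Myh11 of smooth muscle were below background. The part of mural cells in the endothelial values was not tested.

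Platelets and megakaryocytes also express Vwf. Of their 8 markers, 6 had a probe, and Pf4, Gp9, Ppbp and Itgb3 were below background in both groups. The other two, Itga2b and Gp1bb, were at -0.04 and 0.28, and their mean log2 levels were 8.14 to 8.58 in hSRY-OFF and 8.30 to 8.60 in hSRY-ON brains, overlapping. Neither was called in limma, and 0 of the 2 had an unadjusted p under 0.05. These are too few genes to set against the 2.39% of all symbols called, or the 9.86% higher and 11.6% lower at that p.

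Of 4 lymphatic markers, Lyve1 and Flt4 were below background, Prox1 was at 0.46 (adjusted p = 0.0698) and Pdpn at -0.27; Prox1 and Pdpn are also made by other brain cells, and the mean of both was 9.55 to 9.66 in hSRY-OFF and 9.59 to 9.83 in hSRY-ON brains. The 4 tested erythroid markers, which follow the blood left in the tissue, had a median of -0.11 and mean log2 levels of 9.14 to 9.59 in hSRY-OFF against 9.08 to 9.37 in hSRY-ON brains. Among these 4, 0 were called in limma and 0 had an unadjusted p under 0.05, too few genes to set against the 2.39% of all symbols called.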

How the data were processed

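Total RNA of whole brains was labelled as biotinylated cRNA and hybridized to bead arrays, 3 per group, and samples were grouped by the genotype in their titles. The authors deposited a mean bead signal intensity per probe and array, on a linear scale and not normalized, together with a detection p-value, which counts how many negative-control beads matched or outshone the probe. For normalization and testing the paper's methods cite TCC, with no settings, and the submitters' processing notes name limma; neither output was used.

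Here limma 3.58.1 was run in R 4.3.3. Intensities were corrected by normexp from the detection p-values (offset 16), quantile normalized and put on the log2 scale. A probe entered the test where 3 or more of the 6 arrays had a detection p-value under 0.05. The test was lmFit and eBayes (two-sided, group as the only term); p-values were adjusted over all tested probes by Benjamini-Hochberg, and an adjusted p under 0.05 was a call. Each 95% interval is from this fit. These steps were first tested on simulated data. For a gene with several tested probes, the brightest was counted. The 3 arrays per group limit the precision.

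The members and the gene lists were chosen with earlier results of these data known. Named genes were all members, list genes that were called, the 2 highest and 2 lowest of each list, and the 5 genes most like Vwf and Edn1 by Pearson's r among probes with an SD of at least 0.2. Genes below background and further probes of named genes were added after their values were seen. Alternatives were other background corrections, normalizations, filters, priors and array weights, a replicate block, and leaving out each array. Promoter windows and positions are from RefSeq (GRCm38.p6). Plots were made in Python 3.11.15 with matplotlib 3.10.9.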

Additional observations from a re-analysis of the deposited data

How the results depend on the processing

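The number of probes called, 308, was 1317 with no background correction, 860 with normexp on the signals (offset 50), 123 with no filter, 705 with detection p under 0.01 on all arrays, 1447 with a trended, robust prior and 480 with array weights, and 0 to 417 when single arrays were left out. Other endothelial genes called higher, 1, were 10 with no background correction, 9 with normexp at offset 50, 3 with cyclic loess, 0 with no filter (limma, 15 at an unadjusted p under 0.05), 6 with the stricter filter, 9 with the trended prior and 5 with array weights, and 0 to 4 without single arrays. Those called lower, 4, were 15, 9 and 14 with no correction, normexp at offset 50 and the trended prior, and 0 to 8 without single arrays. Their median of -0.10 was -0.0649 with no background correction, -0.0634 with no filter and -0.13 to -0.0478 without single arrays. The median of the identity genes, -0.35, was -0.13 with no correction and -0.21 with normexp at offset 50. With no correction Vwf differed by 1.40, Edn1 by 0.95 and Cdh5 by -0.13, and with normexp at offset 50 Edn1 differed by 1.28. The cause of these shifts was not tested. Vwf, Edn1, Cdh5, Cldn5, Tek, Flt1, Esam and Slco1c1 had the same direction in all 15 alternatives, and the brighter Pecam1 probe ranged from -0.03 to 0.12.

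Replicate numbers were not used as pairs in the main fit. Deviations of same-numbered arrays from their group means correlated only weakly, at 0.04, 0.03 and 0.03, although each array correlated best with its own number. With the replicate block limma called 0 probes, higher or lower, and 0 of the other endothelial genes in either direction, with 2906 probes, 13 endothelial genes higher and 23 lower at an unadjusted p under 0.05. The called endothelial genes then had adjusted p of 0.0989 to 0.110.

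Genes near 0 changed sign without single arrays: they ranged from -0.0316 to 0.1084 for Gja4 (0 with array weights), -0.0144 to 0.1543 for Acta2, -0.0225 to 0.2692 for S100a10, -0.0275 to 0.1871 for Bmx, -0.1531 to 0.1183 for Itga2b and -0.0015 to 0.5123 for Hbb-b1. The Cdh5 and Edn1 probes were dim in hSRY-OFF brains, with mean deposited signals of 258 and 256 units. Their log2 differences moved with the background correction, and the reason was not tested.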
